A study of Mus musculus with 12 samples.

Results

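RNA sequencing compared the wounds of diabetic mice labelled pre-MCS-01 with those labelled DSCG. The members were the 6 libraries with those treatment labels, 3 pre-MCS-01 and 3 DSCG, out of 12 in the series; the other 6 came from post-MCS-01 and blank wounds, 3 each. All 12 mice were C57BL/6 with diabetes induced by streptozotocin, a toxin that destroys insulin-producing beta cells, and each library held RNA of the back-skin wound of 1 mouse. MCS-01 is a code name for a mast cell stabiliser, and DSCG commonly abbreviates disodium cromoglycate (cromolyn), a classical one. The labels do not say what pre and post stand for, and give no dose, time after wounding, age or sex, so the groups are called by their labels and it is not known whether doses and times were matched. No blood glucose or wound size was analysed here.

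Mast cells sit in the dermis, carry the receptor tyrosine kinase KIT and the high-affinity IgE receptor, and store histamine, heparin and proteases (tryptases, chymases and carboxypeptidase A3) in granules. Stabilisers are used to hold back the release of these granules; their contents act on vessels, nerves and leukocytes. In a healing wound, neutrophils arrive first and are followed by monocytes and macrophages, keratinocytes at the edge switch on a migratory programme, and fibroblasts lay down new matrix. In diabetes this sequence is typically slow, with inflammation that persists.

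No gene differed between pre-MCS-01 and DSCG wounds at an adjusted p under 0.05. Expression was tested in 16267 genes with edgeR's quasi-likelihood test, and 0 of them (0%) passed; the smallest adjusted p was 0.428, for Cldn17. At an unadjusted p under 0.05 there were 384 genes, 156 higher in pre-MCS-01 (0.959% of those tested) and 228 lower (1.4%). In 411 genes (2.53%) all 3 pre-MCS-01 libraries lay above all 3 DSCG libraries, and in 422 (2.59%) all 3 lay below. The median log2 fold change, pre-MCS-01 over DSCG, was 0.029 over all genes. DESeq2 on the same counts called 17 genes, 8 higher and 9 lower, of which 16 are among the 20 genes described below. Levels are given as CPM, counts scaled to the size of each library, in replicates 1 to 3 of pre-MCS-01 and then of DSCG, and a value with ± is the log2 fold change of pre-MCS-01 over DSCG with its standard error (n = 3 against 3), negative where pre-MCS-01 was lower. The differences below are measurements with their errors; apart from those 17 calls, none passed a test across all genes, and a missed threshold does not show that the 2 treatments act alike.

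**Figure D1:**
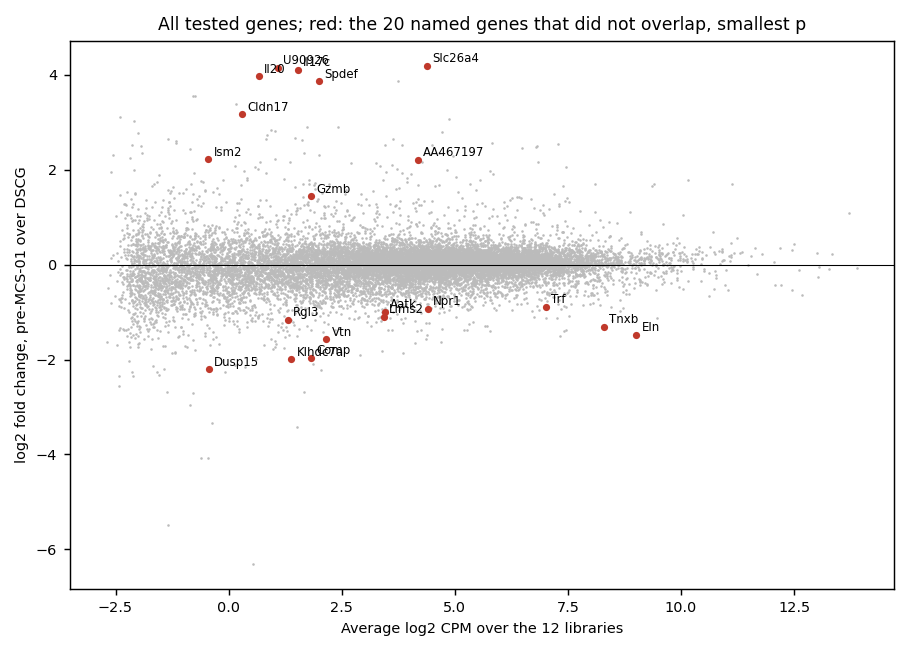
Each point is 1 of the 16267 tested genes, with its average log2 CPM on the x axis and the log2 fold change of pre-MCS-01 over DSCG on the y axis. The 20 genes in red, which stand between -2.20 (Dusp15) and 4.19 (Slc26a4), lie toward the edges of the cloud, which is centred near 0.

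The 6 libraries held 38913019 to 48257392 counts assigned to genes, so that 3 counts correspond to 0.0635 to 0.0852 CPM. All 10 genes of the skin check were present in every library, at 230.1 CPM or more in these 6. Within-group spread was wide. Replicate 2 of each group was short of long transcripts: the rank correlation between a gene's exon length and its deviation from the mean of the 12 libraries was -0.385 in pre-MCS-01 replicate 2 and -0.330 in DSCG replicate 2, against -0.0225 to 0.336 in the other 4. The first principal component of the 6 libraries (44.6% of the variance) placed those 2 libraries together at 58.4 and 57.8 and did not separate the treatments. The second (25.7%) placed DSCG replicate 3 at 75.8 and the others between -23.6 and 12.0. Groups of 3 against 3 give an exact permutation p of 0.1 at the smallest. Below, 2 values stand beside a result where they matter: the value without replicate 2 of both groups, and the value between those 2 libraries, which are alike in length bias. Blank replicate 3, which entered the fit through the shared spread, was shallow, with 3 counts corresponding to 0.786 CPM, and was the third library short of long transcripts (-0.320). Its values for Cldn17, Il20, Il17c, Spdef, U90926 and Ism2, described below, were under 0.786 CPM. The blank levels of these genes therefore rest mainly on replicates 1 and 2.

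Mast cell transcripts did not separate the 2 stabilisers. Of 11 mast cell protease genes, 10 were tested, 2 were higher and 8 lower in pre-MCS-01, none had groups that did not overlap, and the median log2 fold change was -0.31. The summed level of the tested proteases was 128 to 165 CPM in pre-MCS-01 and 108 to 235 CPM in DSCG, so that the DSCG range enclosed the pre-MCS-01 range. Between the 2 libraries short of long transcripts the median difference in log2 CPM was -0.69, and between the other 4 it was -0.046. In whole-tissue RNA, fewer cells of a type and less RNA per cell cannot be told apart, here and in all gene groups below.

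Tpsb2, the tryptase of connective tissue mast cells, stood at 43.7, 35.3 and 49.6 CPM in pre-MCS-01 replicates 1 to 3 and at 69.6, 81.4 and 32.03 CPM in DSCG. DSCG replicates 1 and 2 were above all pre-MCS-01 libraries and DSCG replicate 3 was below them, and the log2 fold change was -0.51 ± 0.33. Mcpt4, a chymase, showed 41.4, 54.6 and 58.8 CPM against 67.5, 88.8 and 38.3 CPM (-0.33 ± 0.39). Its DSCG libraries had the same places, replicates 1 and 2 above and replicate 3 below all pre-MCS-01 libraries. Cma1, the chymase ortholog of human CMA1, stood at 27.7, 27.7 and 33.2 against 49.1, 44.5 and 20.01 CPM (-0.36 ± 0.36), again with DSCG replicate 3 lowest of all 6. Cpa3, the carboxypeptidase of the granule, overlapped between the groups at 13.2, 14.1 and 20.4 against 22.6, 17.4 and 15.7 CPM (-0.22 ± 0.31).

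The other 6 tested proteases were low, at 1.31 CPM or less in each of the 6 libraries. Tpsab1, another tryptase, ranged over the 6 libraries from 0.445 to 1.27 CPM (-0.14 ± 0.56) and Tpsg1, a membrane tryptase, from 0.273 to 1.31 CPM (-0.29 ± 0.55). Mcpt1 and Mcpt2, chymases of mucosal mast cells, were at 0.549 CPM or less in each library (-1.22 ± 1.11 and 0.38 ± 0.86), as were Mcpt8, a basophil protease (0.029 ± 0.57), and Ctsg, cathepsin G (-0.90 ± 0.63). Mucosal mast cell and basophil markers were thus scarce in both groups.

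Among 15 tested genes for mast cell receptors, histamine handling and regulators, 6 were higher and 9 lower in pre-MCS-01, with a median of -0.19 and again no gene without overlap. Kit, the stem cell factor receptor, was at 14.5, 23.8 and 23.5 CPM in pre-MCS-01 and 12.3, 17.1 and 27.9 CPM in DSCG, with full overlap (0.11 ± 0.40). The IgE receptor subunits Fcer1a (0.28 ± 0.44), Ms4a2 (0.22 ± 0.49) and Fcer1g (-0.33 ± 0.38, shared with other leukocytes) all differed by less than their standard errors. Hdc, the histamine-forming decarboxylase, had the widest spread: it stood at 166, 16.99 and 52.7 CPM in pre-MCS-01 and 45.9, 10.7 and 3.68 CPM in DSCG, higher on average in pre-MCS-01 with a log2 fold change of 1.97 ± 1.15, but pre-MCS-01 replicate 2 lay below DSCG replicate 1. Neutrophils and macrophages can also express Hdc, and its part from each cell type was not tested.

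The remaining mast cell genes also overlapped. Il1rl1, the IL-33 receptor, had a log2 fold change of -0.65 ± 0.55, and Hpgds, which makes prostaglandin D, one of -0.55 ± 0.36. Leukotriene synthesis was represented by Ltc4s (-0.52 ± 0.47) and Alox5 (-0.33 ± 0.27), and the transcription factor Gata2 stood at -0.39 ± 0.39. The secretagogue receptors Mrgprb2 (-0.21 ± 0.34) and Mrgprb1 (-0.19 ± 0.39), the vesicular amine transporter Slc18a2 (0.19 ± 0.32), Cd200r3 (-0.17 ± 0.66) and the cannabinoid receptor Cnr2 (0.025 ± 0.35) differed by less than their standard errors.

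**Figure D2:**
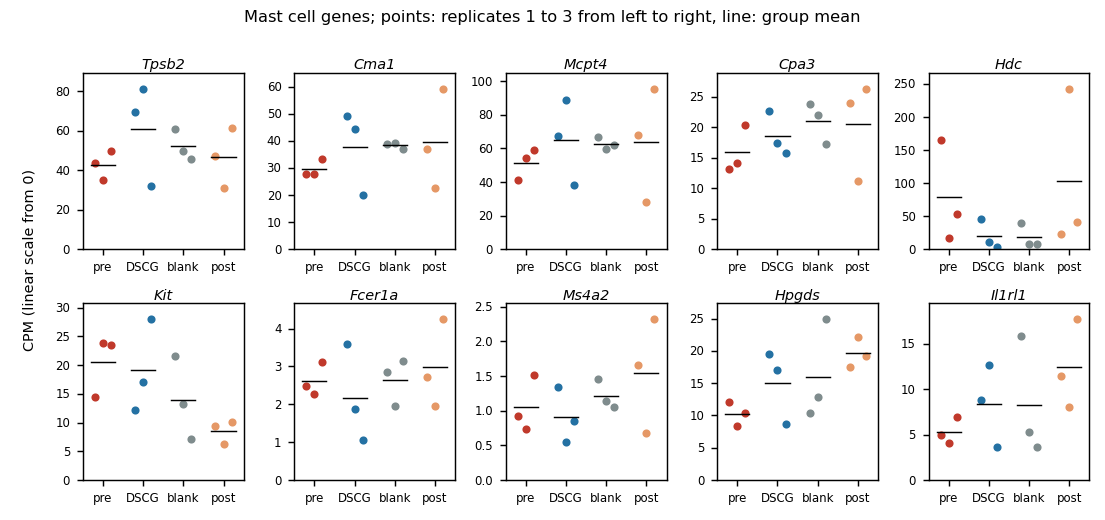
CPM of 10 mast cell genes on linear axes from 0, with a point for each of the 3 replicates (1 to 3 from left to right) of the pre-MCS-01 (pre), DSCG, blank and post-MCS-01 (post) groups and a line at the group mean. The pre-MCS-01 and DSCG points overlap in all 10 panels, and Hdc has single high libraries in pre-MCS-01 (166 CPM) and in post-MCS-01.

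Among genes that reached a mean of 1 CPM in the higher group, did not overlap between the groups and are not predicted gene models, the 20 with the smallest p comprised 9 higher and 11 lower in pre-MCS-01. Since the absence of overlap was part of the choice, it is no evidence for any of them. The 9 included Cldn17, Il20, Il17c, Spdef and Slc26a4, which were at 1.62 CPM or less in each DSCG library. The 11 included Eln, Tnxb, Comp and Vtn, which encode extracellular matrix proteins.

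Cldn17, a claudin of epithelial tight junctions (chromosome 16, 88505807 to 88506978, minus strand, GRCm38), was at 1.32, 2.47 and 2.65 CPM in pre-MCS-01 and 0.253, 0.286 and 0.169 CPM in DSCG. The lowest pre-MCS-01 library was several times the highest DSCG library; the log2 fold change was 3.17 ± 0.47, with an adjusted p of 0.428 in edgeR and 3.00e-05 in DESeq2. Blank wounds (0.262 to 0.437 CPM) were near the DSCG level and post-MCS-01 wounds (0.872 to 2.38 CPM) near the pre-MCS-01 level.

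Il20, a cytokine of the IL-10 family that acts on keratinocytes (chromosome 1, 130906985 to 130911451, minus strand), was at 0.845, 1.96 and 2.23 CPM in pre-MCS-01 and 0.0253, 0.176 and 0.106 CPM in DSCG, where replicate 1 was under the level of 3 counts. Its log2 fold change was 3.97 ± 0.83 and the DESeq2 adjusted p 0.00507. Il17c, an IL-17 family cytokine made by epithelial cells (chromosome 8, 122422020 to 122423639, plus strand), was at 1.59, 2.87 and 7.11 CPM in pre-MCS-01 and 0.532, 0.0659 and 0.0847 CPM in DSCG (4.11 ± 1.003, DESeq2 adjusted p 0.0105). For both cytokines the 3 pre-MCS-01 libraries were all above the 3 DSCG libraries, with replicate 3 highest and replicate 1 lowest in pre-MCS-01. Post-MCS-01 wounds reached 1.06 to 7.05 CPM of Il20 and 1.40 to 9.79 CPM of Il17c, and blank wounds 0 to 0.208 and 0.176 to 0.811 CPM. Blank replicate 3 was under its level of 3 counts (0.786 CPM) for both cytokines.

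The starts of Cldn17 and Il17c are shown as examples of genes with the same order of groups, high in pre-MCS-01 and post-MCS-01 and low in DSCG and blank. Each sequence is the 250 bases before the RefSeq transcript start on the gene's strand (build GRCm38.p6), in lower case, with any match to 3 searched motifs in capitals.
Cldn17, chr16:88506979-88507228, minus strand: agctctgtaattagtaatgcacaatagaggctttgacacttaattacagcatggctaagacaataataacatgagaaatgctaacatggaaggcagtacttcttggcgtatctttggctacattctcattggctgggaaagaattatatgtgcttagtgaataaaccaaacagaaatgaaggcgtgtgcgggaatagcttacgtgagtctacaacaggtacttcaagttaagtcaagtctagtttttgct
Il17c, chr8:122421770-122422019, plus strand: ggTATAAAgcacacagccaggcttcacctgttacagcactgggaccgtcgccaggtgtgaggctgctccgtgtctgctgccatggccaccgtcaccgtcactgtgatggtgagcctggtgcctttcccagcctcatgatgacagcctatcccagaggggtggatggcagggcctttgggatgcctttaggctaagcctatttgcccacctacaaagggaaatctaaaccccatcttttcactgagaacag
The motifs, searched on both strands, were the core promoter box TATAAA, the AP-1 element TGANTCA and the NF-kB consensus. Il20 had the same order, but its RefSeq start lies inside the gene as GENCODE places it, so its window is not shown. Spdef, Slc26a4 and U90926, described below, also had this order, and their windows are not shown either. The single match was to the letters TATAAA, on the plus strand of the Il17c window at 248 to 243 bases before the start. It overlaps no other match, and whether it acts as a core promoter box at that distance was not tested. Of 32851 promoter windows of the same length in the RefSeq table, 12.4% held TATAAA, 6.75% the AP-1 element and 7.25% the NF-kB consensus. The absence of a match says only that these letters are not in these windows.

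Spdef, an ETS-family transcription factor of secretory epithelial cells, stood at 2.19, 6.11 and 6.42 CPM in pre-MCS-01 and 0.811, 0.154 and 0.0635 CPM in DSCG (3.86 ± 0.84). Slc26a4, which encodes the anion exchanger pendrin, was at 4.40, 14.97 and 20.5 CPM against 1.62, 0.440 and 0.148 CPM (4.19 ± 1.04), the largest difference among the 20 on the log2 scale. In both, DSCG replicate 1 was the highest DSCG library and still below the lowest pre-MCS-01 library. Post-MCS-01 wounds carried 4.31 to 16.1 CPM of Spdef and 10.7 to 148 CPM of Slc26a4; blank wounds carried 0 to 0.353 and 1.04 to 2.04 CPM. U90926 followed the same order of groups, with 0.895, 2.02 and 4.39 CPM in pre-MCS-01 and 0.355, 0.0659 and 0 CPM in DSCG (4.15 ± 0.97). With few counts in some DSCG libraries, the fitted fold changes of Il20, Il17c and U90926 depend on the small count that edgeR adds before taking logs.

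AA467197, the mouse counterpart of NMES1, was at 14.6, 22.6 and 20.4 CPM in pre-MCS-01 and 4.48, 3.80 and 4.21 CPM in DSCG (2.20 ± 0.52). It departs from the genes above in that blank wounds spread from 7.08 to 37.5 CPM, over the whole pre-MCS-01 range, so that the 3 DSCG libraries were the low ones. Gzmb, granzyme B of cytotoxic lymphocytes, was at 2.96, 2.98 and 4.07 CPM against 1.55, 0.835 and 1.31 CPM (1.44 ± 0.31), with blank wounds in between (1.85 to 2.37 CPM) and post-MCS-01 wounds higher (5.09 to 8.34 CPM). Ism2, a secreted isthmin, was at 0.920, 1.99 and 1.43 CPM against 0.431, 0.352 and 0.148 CPM (2.22 ± 0.53). Ism2 was low in post-MCS-01 (0.216 to 0.757 CPM) as well as in blank wounds (0.262 to 0.541 CPM), so its high libraries were the 3 of pre-MCS-01.

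Eln, elastin (chromosome 5, 134702593 to 134747323, minus strand), was at 185, 151 and 285 CPM in pre-MCS-01 and 596, 623 and 517 CPM in DSCG. All 3 DSCG libraries were above the highest pre-MCS-01 library; the log2 fold change was -1.48 ± 0.37, with an adjusted p of 0.9998 in edgeR and 0.0496 in DESeq2. Tnxb, tenascin-X, a matrix protein that organises collagen fibrils (chromosome 17, 34670535 to 34719815, plus strand), was at 109, 142 and 180.1 CPM against 395, 361 and 314 CPM (-1.31 ± 0.34). Blank wounds had 431 to 1008 CPM of Eln and 326 to 559.8 CPM of Tnxb, above every pre-MCS-01 library. Post-MCS-01 wounds had 363 to 793 CPM of Eln, also above every pre-MCS-01 library. Their 166 to 434 CPM of Tnxb reached into the pre-MCS-01 range. Between the 2 libraries short of long transcripts the log2 ratio was -2.04 for Eln and -1.35 for Tnxb.

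Comp, cartilage oligomeric matrix protein, stood at 1.96, 0.568 and 1.86 CPM in pre-MCS-01 and 3.34, 6.81 and 7.09 CPM in DSCG (-1.97 ± 0.46). Vtn, the adhesive glycoprotein vitronectin, stood at 2.46, 2.02 and 2.21 against 7.32, 8.81 and 3.77 CPM (-1.57 ± 0.36). Both were higher in all 3 DSCG libraries, and the post-MCS-01 range of Comp (1.61 to 2.94 CPM) reached into the pre-MCS-01 range, whereas that of Vtn (3.24 to 5.23 CPM) lay above every pre-MCS-01 library. Trf, the iron carrier transferrin, was at 85.9, 80.5 and 70.04 CPM against 149, 162 and 128 CPM, a narrow spread within each group (-0.89 ± 0.19, DESeq2 adjusted p 0.0129).

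The other 6 lower genes had log2 fold changes between -0.93 and -2.20. Dusp15, a phosphatase, was at 0.273, 0.369 and 0.138 against 1.17, 1.56 and 0.868 CPM (-2.20 ± 0.46). Npr1, the receptor for atrial natriuretic peptide, was at 11.4, 12.2 and 16.2 against 28.5, 26.7 and 20.7 CPM (-0.93 ± 0.23). Lims2, a focal adhesion adaptor, was at 6.19, 7.24 and 5.34 against 14.6, 10.9 and 14.9 CPM (-1.10 ± 0.28). These 3 genes had no pre-MCS-01 library within the DSCG range. The kinase gene Aatk (-0.99 ± 0.22), the Ral exchange factor gene Rgl3 (-1.17 ± 0.27) and Klhdc7a (-1.996 ± 0.51) complete the set. Rgl3 was lower than blank (2.36 to 2.94 CPM) in all pre-MCS-01 (1.86, 1.68 and 1.59 CPM) and post-MCS-01 libraries (1.10 to 1.76 CPM). Itih2, an inter-alpha-trypsin inhibitor heavy chain, was called by DESeq2 (log2 fold change -2.77, adjusted p 0.0323) and is below the minimum level of the other 20; it is named here after its values were seen.

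**Figure D3:**
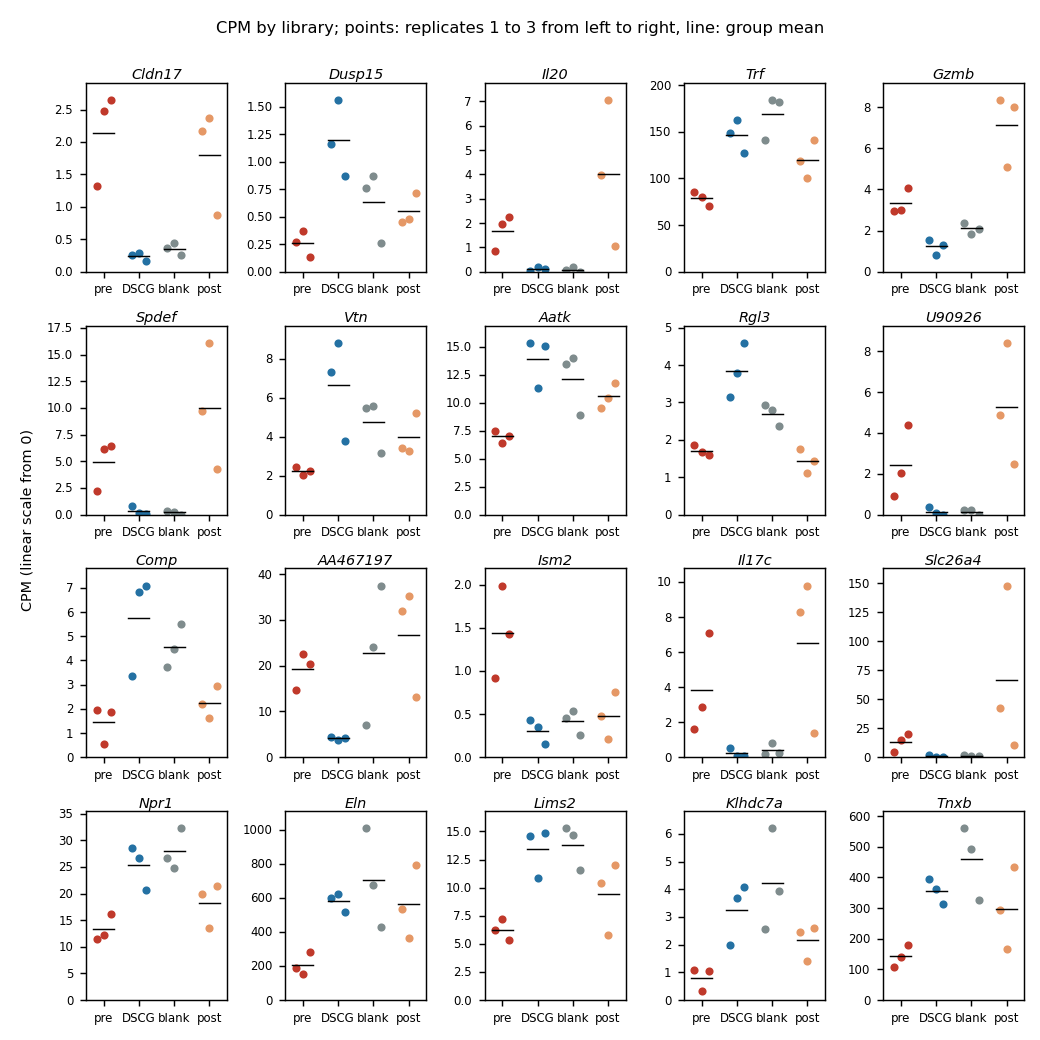
CPM of the 20 genes on linear axes from 0, with a point for each of the 3 replicates (1 to 3 from left to right) of pre-MCS-01 (pre), DSCG, blank and post-MCS-01 (post) and a line at the group mean. In every panel the 3 red pre-MCS-01 points and the 3 blue DSCG points do not overlap, which was a condition of the choice; in Cldn17, Il20, Spdef, U90926, Il17c and Slc26a4 the DSCG points are at 1.62 CPM or less.

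Genes of acute inflammation stood higher in pre-MCS-01 wounds on average, and DSCG replicate 3 was the lowest library. Of 22 tested inflammatory cytokines and enzymes, 19 were higher and 3 lower, 7 of them with an unadjusted p under 0.05, all higher (against 0.959% of all genes), and 6 without overlap (against 2.53%). The median log2 fold change was 1.27, against 0.029 over all genes. The list's mean log2 CPM was 3.15, 2.64 and 3.44 in pre-MCS-01 and 2.32, 1.73 and 0.22 in DSCG, so all 3 DSCG libraries were below all 3 of pre-MCS-01. Without DSCG replicate 3 the median was 0.94, without DSCG replicate 1 2.22.

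Il1b, the central pyrogenic cytokine, stood at 347, 36.8 and 105 CPM in pre-MCS-01 and 72.4, 12.4 and 1.52 CPM in DSCG (2.503 ± 1.52). Pre-MCS-01 replicate 2 was below DSCG replicate 1, so the groups overlapped. Tnf (11.8, 4.55 and 12.7 against 7.85, 2.94 and 1.42 CPM, 1.25 ± 0.62) overlapped in the same way. Il6 was near or under 1 CPM in most libraries, 0.298, 0.455 and 1.27 against 0.253, 2.51 and 0.127 CPM, and pointed the other way, with DSCG replicate 2 highest (-0.51 ± 1.07).

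Il19, a relative of Il20 in the IL-10 family, was at 1.67, 9.01 and 10.4 CPM against 1.19, 1.60 and 0.0212 CPM (2.91 ± 0.99). The subunits of IL-23 and IL-12 did not overlap either. Il23a was at 1.29, 1.99 and 3.15 against 0.760, 0.505 and 0.339 CPM (2.01 ± 0.68). Il12b was at 0.199, 1.02 and 1.40 against 0.177, 0.0440 and 0.169 CPM (2.73 ± 0.95). For Il19 and Il12b the lowest pre-MCS-01 library was barely above the highest DSCG library. Under the level of 3 counts were DSCG replicate 3 for Il19 and DSCG replicate 2 for Il12b. The fold change of Il12b ranged from 0.96 to 3.20 over the settings. Nos2, the inducible nitric oxide synthase, was at 4.72, 2.47 and 55.8 against 2.31, 1.01 and 1.02 CPM, with pre-MCS-01 replicate 3 far above the other libraries (3.87 ± 1.58). Ptges, a prostaglandin E synthase, overlapped at 187, 146 and 230.4 against 189.7, 119.5 and 42.9 CPM (0.68 ± 0.45), with DSCG replicate 3 lowest.

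Neutrophil genes were also higher on average in pre-MCS-01, with DSCG replicate 3 lowest. Of 20 tested neutrophil genes 18 were higher in pre-MCS-01 and 2 lower, 3 of the higher ones without overlap (against 2.53% of all genes), with a median of 1.19. Mean log2 CPM of the list was 5.02, 3.78 and 4.38 in pre-MCS-01 and 4.19, 3.28 and 0.96 in DSCG; DSCG replicate 1 lay within the pre-MCS-01 range and DSCG replicate 3 far below all other libraries. Without DSCG replicate 3 the median was 0.64, and without DSCG replicate 1 it was 2.09. S100a8 and S100a9 encode the subunits of calprotectin, which neutrophils and activated keratinocytes both make. S100a8 was at 2373, 1548 and 1227 CPM in pre-MCS-01 and 1225, 265 and 8.74 CPM in DSCG (1.78 ± 1.05), and S100a9 at 3892, 2810.5 and 2666 against 2352, 514 and 10.5 CPM (1.70 ± 1.10). Their lowest pre-MCS-01 libraries were close to DSCG replicate 1, and DSCG replicate 3 was lower by more than an order of magnitude than any other.

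The formyl peptide receptor gene Fpr1 stood at 5.89, 1.19 and 5.25 CPM against 1.70, 0.615 and 0.106 CPM (2.36 ± 1.10), with overlap. Mmp8, neutrophil collagenase, overlapped at 2.83, 1.42 and 6.995 against 1.60, 1.01 and 1.12 CPM (1.60 ± 0.54), as did Mmp9, gelatinase B, at 116, 66.05 and 135 against 101, 83.7 and 16.3 CPM (0.66 ± 0.55). Of 7 chemokines and growth factors that recruit neutrophils, 6 were higher, 1 without overlap (against 2.53% of all genes), with a median of 1.77 and 1.14 without DSCG replicate 3. Cxcl1 was at 1.94, 3.24 and 11.1 against 1.70, 3.89 and 0.212 CPM (1.49 ± 0.84), Cxcl2 at 326, 23.7 and 93.2 against 74.3, 4.72 and 0.423 CPM (2.48 ± 1.85). Csf3, the granulocyte growth factor, was at 2.59, 3.72 and 4.42 against 2.10, 1.25 and 0 CPM (1.68 ± 1.24) and did not overlap. DSCG replicate 3 was lowest in all 3 of these genes, and pre-MCS-01 replicate 1 or 3 highest.

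**Figure D4:**
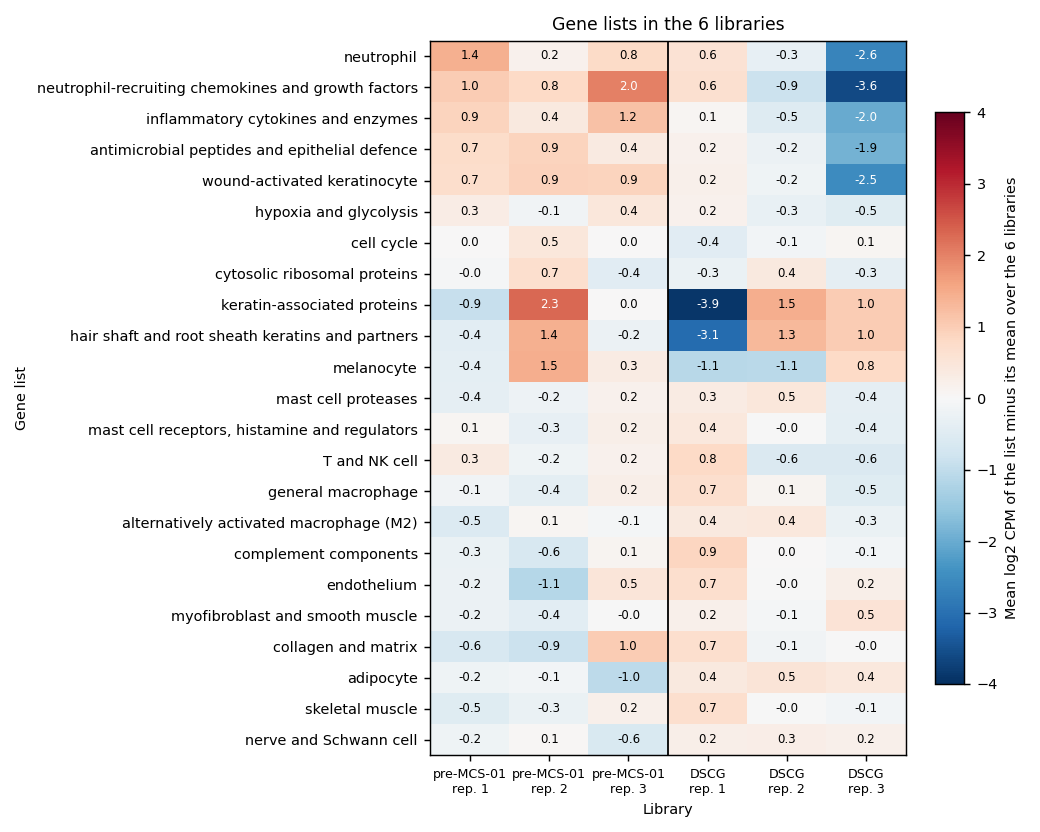
Mean log2 CPM of each gene list in each of the 6 libraries (columns), minus the list's mean over the 6; red is above and blue below that mean. DSCG replicate 3 is far below the other libraries in the neutrophil, chemokine, inflammatory, epithelial defence and wound keratinocyte lists, and DSCG replicate 1 in the keratin-associated and hair lists, so the spread within DSCG exceeds the difference between group means in these lists.

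Epithelial defence genes had the largest share of members without overlap among the epithelial lists. Of 14 tested antimicrobial peptides and related genes, 13 were higher in pre-MCS-01, 7 with an unadjusted p under 0.05 (against 0.959% of all genes) and 7 without overlap (against 2.53%), and the median was 1.05. The mean log2 CPM was 4.87, 5.02 and 4.500 against 4.30, 3.90 and 2.27; the 3 DSCG libraries were below the 3 of pre-MCS-01. The median was 0.58 without DSCG replicate 3, 1.19 without the 3 libraries short of long transcripts.

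Defb3, a beta-defensin inducible in keratinocytes, was at 19.1, 41.4 and 19.1 CPM in pre-MCS-01 and 8.38, 5.47 and 0.106 CPM in DSCG (2.51 ± 0.97). Defb6 was at 284, 251 and 156 against 141, 82.6 and 51.6 CPM (1.33 ± 0.49), and Defb4 overlapped at 10.02, 9.49 and 2.30 against 3.52, 2.59 and 0.572 CPM (1.71 ± 0.66). Slpi, the secretory leukocyte protease inhibitor, was at 222, 186 and 174 against 96.01, 73.6 and 15.3 CPM (1.66 ± 0.61). In Slpi, Defb3 and Defb6 every pre-MCS-01 library was above every DSCG library. Lcn2, the siderophore-binding lipocalin counted in the neutrophil list too, was at 157, 121 and 161 against 118, 52.7 and 16.01 CPM (1.23 ± 0.56), with DSCG replicate 1 close to pre-MCS-01 replicate 2.

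Wound-activated keratinocyte genes pointed the same way, 18 of 22 higher and 8 without overlap (against 2.53% of all genes), with a median of 0.51 (0.41 without DSCG replicate 3). List means were 8.01, 8.22 and 8.21 in pre-MCS-01 and 7.501, 7.13 and 4.80 in DSCG. Krt6a, a keratin of migrating keratinocytes, overlapped at 2455, 1967 and 2870.0 against 1794, 3411 and 926 CPM (0.25 ± 0.41), and so did Krt17 at 4205, 8486 and 6290.1 against 2440.0, 6448 and 5098 CPM (0.44 ± 0.40). The small proline-rich gene Sprr2f was at 53.5, 105 and 94.8 against 23.9, 18.6 and 0.275 CPM (2.57 ± 1.06) and the serpin Serpinb3b at 52.3, 45.5 and 66.7 against 39.6, 12.7 and 2.94 CPM (1.58 ± 0.70), neither with overlap. The 8 genes without overlap were Krt79, Sprr2d, Sprr2e, Sprr2f, Sprr2h, Sprr2i, Serpinb3b and Serpinb3c. All but Krt79 belong to the Sprr2 and Serpinb3 families of near-identical copies. Only uniquely assigned reads are counted, so the levels of these copies are uncertain and they may not be separate observations.

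The basal keratinocyte list did not show this order, and the epidermal differentiation list showed it in some members only. The basal keratinocyte list had 6 members higher and 7 lower with a median of -0.051, and Krt14, the basal keratin, was at 15684, 11693 and 9511 against 13682, 13545 and 4571 CPM (0.21 ± 0.43). Of 34 epidermal differentiation genes 22 were higher and 12 lower, with a median of 0.16 that turned to -0.21 without DSCG replicate 3. Of the higher genes 4 did not overlap (against 2.53% of all genes), and of the lower genes 0. List means overlapped, at 7.87, 7.85 and 7.71 in pre-MCS-01 and 7.97, 7.61 and 6.37 in DSCG. Krt2, a keratin of the upper epidermis, was at 1.79, 9.49 and 3.11 CPM against 0.152, 1.12 and 0.741 CPM (2.82 ± 0.81), and Tgm1, the transglutaminase that cross-links the cornified envelope, at 375, 426 and 448 against 279, 351 and 193 CPM (0.60 ± 0.39). Neither of these 2 overlapped.

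**Figure D5:**
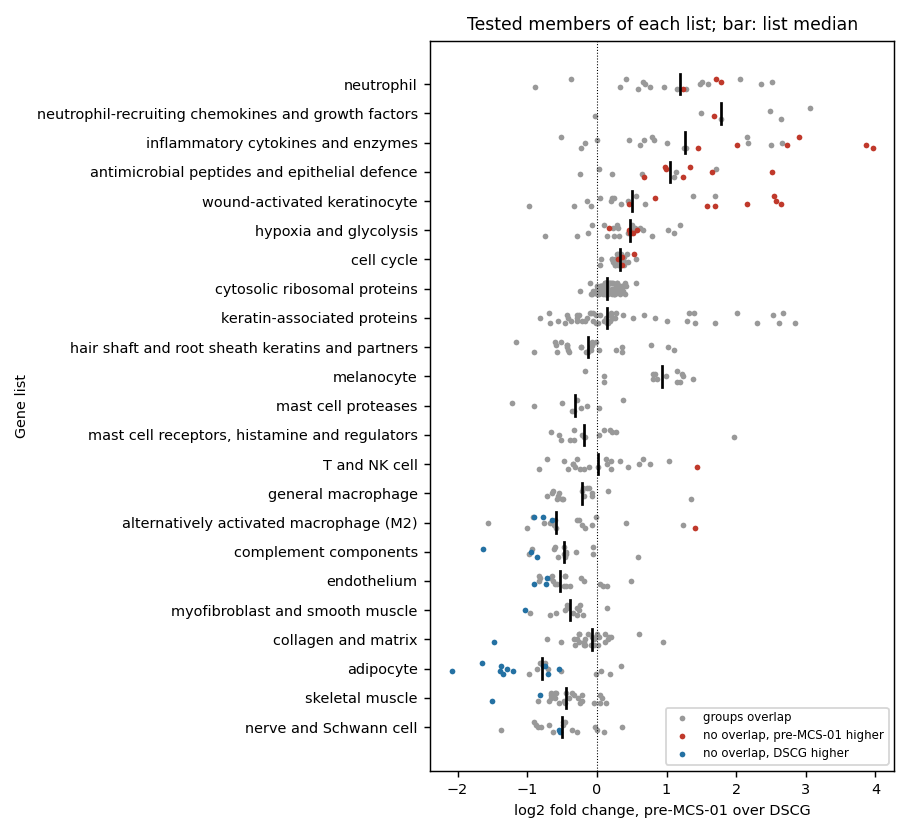
Each point is a tested member of a gene list, at its log2 fold change of pre-MCS-01 over DSCG on the x axis, with a bar at the list's median; red and blue points are genes whose 3 and 3 libraries did not overlap. Red points gather in the inflammatory, epithelial defence and wound keratinocyte lists and blue points in the adipocyte list (11 of 22), and most points in other lists are grey.

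Most macrophage genes were lower on average in pre-MCS-01, and Arg1 was higher. Among 20 tested genes of alternatively activated (M2) macrophages, 3 were higher and 17 lower, with a median of -0.59. Of these, 1 of the higher and 3 of the lower genes did not overlap (against 2.53% and 2.59% of all genes). The list's mean log2 CPM overlapped, at 3.41, 4.04 and 3.87 in pre-MCS-01 and 4.35, 4.36 and 3.67 in DSCG. Arg1, arginase 1, was at 267, 215 and 307 CPM in pre-MCS-01 and 181, 65.9 and 49.8 CPM in DSCG, without overlap (1.41 ± 0.50). Chil3, a chitinase-like secreted protein, was at 6.81, 6.05 and 12.2 against 6.28, 3.12 and 1.31 CPM (1.23 ± 0.55). Arg1 and Chil3 thus pointed opposite to most of the list they belong to.

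Folr2, a folate receptor of resident macrophages, was at 24.5, 33.3 and 22.6 against 54.3, 49.2 and 33.9 CPM (-0.77 ± 0.28) and Lyve1, also a lymphatic marker, at 8.65, 12.3 and 9.30 against 16.3, 16.5 and 14.5 CPM (-0.65 ± 0.23). Both were lower in all 3 pre-MCS-01 libraries. Mrc1, the mannose receptor CD206, overlapped at 36.3, 42.9 and 80.1 against 94.1, 68.1 and 76.3 CPM (-0.58 ± 0.35). Of 17 general macrophage genes 15 were lower, none without overlap, with a median of -0.22. The mean of this list was 5.61, 5.35 and 5.98 in pre-MCS-01 and 6.41, 5.87 and 5.26 in DSCG, so the DSCG range enclosed the pre-MCS-01 range. Cd68, a lysosomal marker, was at 49.6, 50.1 and 78.4 against 116, 115 and 62.9 CPM (-0.72 ± 0.31), and the lipopolysaccharide co-receptor gene Cd14, also made by neutrophils, at 186, 37.5 and 93.4 against 79.8, 29.4 and 14.8 CPM (1.35 ± 0.77).

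T cell genes were balanced between the groups, and B cell genes stood lower on average in pre-MCS-01, with overlap. T and NK cell genes split 12 to 11 with a median of 0.0092. Gzmb, above, was the only member without overlap (against 2.53% of all genes). Ctla4, an inhibitory receptor, was at 1.79, 0.909 and 2.81 against 1.44, 0.681 and 0.572 CPM (1.04 ± 0.46). The list's mean was highest in DSCG replicate 1, with 1.77, 1.27 and 1.60 in pre-MCS-01 and 2.23, 0.86 and 0.85 in DSCG. B and plasma cell genes were scarce, and 6 of 8 were lower (-0.87). Their summed level was 3.73 to 10.4 CPM in pre-MCS-01, within the DSCG range of 2.33 to 17.5 CPM. DSCG replicate 3 had the lowest list mean (-1.82). Igj, the immunoglobulin joining chain, was at 0.373, 0.170 and 0.253 against 2.20, 1.05 and 0.614 CPM (-2.26 ± 0.79). It was the 1 member without overlap (against 2.59% of all genes). Monocyte and lymphocyte chemokines split 11 to 11 (0.030), and 18 of 25 interferon response genes were lower (-0.23). MHC class II genes had a median of -0.20 and dendritic and Langerhans cell genes one of -0.23. Without DSCG replicate 1 the interferon median was 0.070 and the MHC class II median 0.12, both of opposite sign.

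Complement genes were lower in 16 of 17 cases, 3 of them without overlap (2.59% of all genes), with a median of -0.47. C7, a terminal component, was at 6.64, 4.01 and 7.62 CPM in pre-MCS-01 and 17.3, 12.7 and 26.6 CPM in DSCG (-1.63 ± 0.46). C6, its neighbour in the membrane attack complex, was at 7.83, 5.65 and 6.21 against 15.5, 14.6 and 8.07 CPM (-0.95 ± 0.36), and C4b of the classical pathway at 155, 119 and 219 against 379, 254 and 259 CPM (-0.86 ± 0.31). All 3 were lower in every pre-MCS-01 library than in any DSCG library. The list's mean was highest in DSCG replicate 1, 5.84, 4.99 and 4.88 in DSCG against 4.72, 4.36 and 5.11, and without that library the median was -0.11.

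Adipocyte genes had the largest number of members lower without overlap. Of 22 tested genes of fat cells, which lie beneath the dermis of the back, 19 were lower in pre-MCS-01, 7 with an unadjusted p under 0.05 (1.4% of all genes) and 11 without overlap (2.59%), and the median was -0.79. The summed level was 1439 to 2022 CPM in pre-MCS-01 and 2467 to 2858 CPM in DSCG, with no overlap. The median difference was -1.01 without replicate 2 of both groups and -0.54 between those 2 libraries.

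Lep, leptin, was at 1.29, 1.25 and 0.552 CPM in pre-MCS-01 and 1.95, 7.05 and 4.13 CPM in DSCG (-2.09 ± 0.65). Lpl, the lipoprotein lipase that releases fatty acids for uptake, was at 98.7, 112 and 67.2 against 173, 361 and 188 CPM (-1.38 ± 0.43). Plin4, a lipid droplet protein, stood at 18.7, 16.8 and 19.3 against 34.6, 42.9 and 49.4 CPM (-1.21 ± 0.38), with narrow spread in pre-MCS-01. Every DSCG library was above every pre-MCS-01 library in these 3 genes. Thrsp, a regulator of lipid synthesis (-1.39 ± 0.50), Pparg, the master transcription factor of fat cells (-0.74 ± 0.47), and Slc2a4, the insulin-responsive glucose transporter (-0.70 ± 0.42), did not overlap either, whereas Cfd, adipsin, at 228, 430.4 and 53.8 against 354, 590.0 and 454 CPM, did (-0.97 ± 0.65).

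Vessel, muscle and nerve lists were lower as well, by less. Endothelial genes were lower in 18 of 22 (-0.53), 3 without overlap (against 2.59% of all genes). Cldn5, the claudin of endothelial junctions, was at 18.3, 13.04 and 16.8 against 29.4, 34.04 and 26.7 CPM (-0.91 ± 0.34), Egfl7 at 29.2, 27.05 and 29.1 against 53.1, 52.4 and 34.3 CPM (-0.71 ± 0.31), and Pecam1 (CD31) overlapped at 42.7, 17.7 and 64.6 against 79.1, 51.8 and 58.4 CPM (-0.60 ± 0.45). Pre-MCS-01 replicate 2 was the lowest library of the endothelial list, 3.69, 2.80 and 4.43 in pre-MCS-01 and 4.59, 3.92 and 4.18 in DSCG, and without it the median was -0.18.

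Myofibroblast and smooth muscle genes were lower in 13 of 14 (-0.38), with Cnn1, calponin, at 2.93, 4.46 and 2.37 against 6.08, 5.19 and 8.68 CPM (-1.03 ± 0.49). Cnn1 was the 1 member without overlap (against 2.59% of all genes). Skeletal muscle genes, of the panniculus muscle under the skin, were lower in 22 of 26 (-0.45), 2 of them without overlap (against 2.59% of all genes). Without DSCG replicate 1 the skeletal muscle median was -0.13. Nerve and Schwann cell genes were lower in 15 of 18 (-0.51), 2 of them without overlap (against 2.59% of all genes). The means of this list did not overlap, at 2.50, 2.72 and 2.07 in pre-MCS-01 and 2.90, 2.94 and 2.88 in DSCG.

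The neuropeptide list, of interest because mast cells and sensory nerves signal to each other, split 5 to 11 over 16 tested members of 24 (-0.16). Tac1, the substance P precursor, did not pass the filter on low counts. Tacr1, the substance P receptor, was at 2.04, 1.70 and 4.19 against 3.01, 3.16 and 3.79 CPM (-0.33 ± 0.41). Adcyap1r1, the receptor for the neuropeptide PACAP, was at 7.28, 4.29 and 4.88 against 15.4, 8.77 and 12.3 CPM (-1.15 ± 0.45), the 1 member without overlap (against 2.59% of all genes).

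Collagen genes were split, unlike Eln and Tnxb. Of 31 collagen and matrix genes 11 were higher and 20 lower with a median of -0.076. Eln was the 1 member without overlap, near the share of 2.59% among all genes. Col1a1, the main fibrillar collagen chain, was at 4834, 4529 and 30879 CPM in pre-MCS-01 and 23300.0, 7634 and 11474 CPM in DSCG (-0.076 ± 0.78). Pre-MCS-01 replicate 3 was the highest of the 6 and pre-MCS-01 replicates 1 and 2 the lowest, and the list's median was -1.07 without pre-MCS-01 replicate 3 but 0.15 without pre-MCS-01 replicate 2. Matrix proteases had a median of -0.068, with Mmp13, a collagenase, at 18.9, 24.03 and 52.4 against 21.7, 14.8 and 4.47 CPM (1.22 ± 0.60).

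Wound growth factors split 12 to 15 (-0.11). Vegfa, the angiogenic factor induced in hypoxic keratinocytes and macrophages, was at 69.96, 38.8 and 106 CPM in pre-MCS-01 and 48.2, 25.3 and 32.8 CPM in DSCG (1.02 ± 0.45); pre-MCS-01 replicate 2 lay within the DSCG range. The hypoxia and glycolysis list, which also holds Vegfa, was higher in 24 of 28 genes, 6 without overlap (against 2.53% of all genes), with a median of 0.47. Pgk1, phosphoglycerate kinase, was at 472, 488 and 478 against 380.0, 330.1 and 259 CPM (0.57 ± 0.22), Ldha, lactate dehydrogenase A, at 1026, 1234 and 935 against 898, 880.1 and 545 CPM (0.46 ± 0.25), and the lactate exporter gene Slc16a3 overlapped at 144, 78.5 and 174 against 95.1, 46.04 and 32.7 CPM (1.19 ± 0.46). DSCG replicate 3 was the lowest library for Pgk1, Ldha and Slc16a3, and the list's median without it was 0.29.

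All 33 cell cycle genes were higher in pre-MCS-01 (32 with total-count scaling and 26 without pre-MCS-01 replicate 2), by a median of 0.33 and at most 0.56, with 0 at an unadjusted p under 0.05 (against 0.959% of all genes) and 4 without overlap (against 2.53%). Ccne1, cyclin E1, was at 10.9, 15 and 11.1 CPM against 7.09, 9.10 and 9.49 CPM (0.53 ± 0.25), and Mki67, the proliferation marker Ki-67, at 112, 131 and 125 against 69.1, 94.6 and 136 CPM (0.30 ± 0.31), with overlap. Cell cycle genes are expressed together in dividing cells, so their common sign is not 33 separate observations. Leaving out pre-MCS-01 replicate 2 gave a median of 0.19, and leaving out DSCG replicate 1 one of 0.18. Cytosolic ribosomal protein genes, 76 of 82 higher with a median of 0.15, had a median of opposite sign, -0.23, without pre-MCS-01 replicate 2.

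Hair and pigment genes varied more between mice than between groups. Hair keratins were lower in 22 of 29 by the fit (-0.12), while the median difference of mean log2 CPM was 0.51, of the opposite sign. DSCG replicate 1 had a list mean of 4.17 and the other 2 DSCG libraries 8.57 and 8.28, with 6.85, 8.68 and 7.03 in pre-MCS-01. Tchh, trichohyalin of the inner root sheath, stood at 4248, 7243 and 5346 against 630.3, 5433 and 16714 CPM (-0.44 ± 0.83), with both extremes in DSCG. Keratin-associated proteins, in the hair shaft, showed the same library pattern, with means of 3.73, 6.96 and 4.68 in pre-MCS-01 and 0.77, 6.12 and 5.67 in DSCG and a median log2 fold change of 0.14, which became -1.20 without pre-MCS-01 replicate 2. Melanocyte genes were higher in 13 of 14 (0.93). Their median difference was 2.87 between the replicate 2 libraries and 0.16 without them, and the fitted median without the 3 libraries short of long transcripts was -0.13. Pmel, a melanosome protein, was at 42.8, 222 and 80.4 against 24.3, 30.5 and 91.998 CPM (1.23 ± 0.71).

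The remaining lists stood near the median of all genes, except insulin and IGF signalling. Those genes were lower in 16 of 21 (-0.25), 2 of them without overlap (against 2.59% of all genes). Hair follicle regulators had a median of -0.095, sebaceous gland genes -0.081, and Wnt ligands and inhibitors -0.14. The median was 0.030 for oxidative stress genes, 0.051 for immediate early and heat shock genes, -0.12 for blood genes (9 tested of 21) and 0.062 for the skin identity genes. Among all lists, the medians of the monocyte chemokine, T and NK cell, basal keratinocyte, matrix protease, growth factor, hair keratin, hair regulator, sebaceous, Wnt, stress and skin identity lists also changed sign in at least 1 alternative. Within the wounds the between-mouse spread was slightly wider for DSCG: the median SD of log2 CPM over genes was 0.417 in DSCG and 0.370 in pre-MCS-01, and 57.5% of genes had the larger SD in DSCG.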

How the data were processed

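Per the labels' protocols, TruSeq libraries were prepared from total RNA of 12 wounds. The authors deposited raw read counts per gene symbol for each library; FastQC, TopHat2, Bowtie2, HTSeq, limma and the build mm10 are named in the submitters' processing notes, without versions. Whether counting used strand is not given in the sources used here, so overlapping and antisense genes cannot be told apart. The 5 HTSeq summary lines were left out; they include reads aligned to several places (17.4% to 22.3% in the 6 libraries) or to no feature (4.43% to 6.81%).

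Counts were tested in R 4.3.3 with edgeR 4.0.16 (glmQLFit and glmQLFTest, two-sided, all 12 libraries, a mean per group, TMM scaling, filterByExpr by group), with Benjamini-Hochberg adjustment over 16267 genes and a threshold of 0.05. CPM are TMM-scaled; log2 CPM use a prior count of 2; values after ± are standard errors of the log2 fold change. DESeq2 1.42.0 and limma-voom 3.58.1 were alternatives. Exon lengths and coordinates came from GENCODE M21 (GRCm38, the same assembly as mm10), with 95.3% of symbols matched, and promoters from RefSeq, which held both genes shown.

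Each library is 1 mouse by its title; replicate numbers follow the order of deposition and pair nothing. Members and gene lists were chosen with earlier results of these data known. Genes named are the 20 with the smallest p without overlap and a mean of 1 CPM, all tested mast cell genes, a short list of wound genes, and a selection from the 4 smallest p and 3 highest levels of each list; list medians are described with no test. Lists share members.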

Additional observations from a re-analysis of the deposited data

How the results depend on the processing

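No gene passed in 18 of 19 alternatives, and the exception was DESeq2, with 17 genes, 8 higher and 9 lower; why it differs from edgeR was not tested. The count stayed at 0 when each of the 6 libraries was left out in turn (range 0 to 0), with a smallest adjusted p of 0.0725, for the fit without DSCG replicate 1, and 0.198 for the newer quasi-likelihood fit of edgeR, which was added after seeing the data together with a robust fit. Genes at an unadjusted p under 0.05 numbered 266 to 996 over the settings, against 384; the lowest count came without the 3 libraries short of long transcripts and the highest from limma-voom with quality weights. RLE and total-count scaling moved the log2 fold changes by a median of -0.039 and -0.060. Of 2067 alternative fold changes of the 109 genes tested by name, 1997 kept their direction and their side of the threshold, 17 passed (the DESeq2 calls) and 53, in 18 genes, changed sign; the cause was not tested. All 18 had small fold changes relative to their errors. RLE scaling gave -0.015 for Mcpt8 and -0.018 for Cnr2. Total-count scaling gave -0.013 for Mcpt8 and -0.0087 for Cnr2. No filter gave -0.0026 for Cnr2. DESeq2 gave -0.014 for Mcpt8 and -0.015 for Cnr2. With limma-voom the values were 0.54 for Tchh and 0.35 for Il6. Quality weights gave -0.17 for Kit, 0.60 for Tchh, 0.15 for Tpsab1 and 0.13 for Il6. The 6 libraries alone gave -0.013 for Cnr2. Leaving out the 3 libraries short of long transcripts (replicate 2 of pre-MCS-01 and of DSCG, and blank replicate 3) gave 0.040 for Fcer1g, -0.099 for Kit, 0.011 for Col1a1, 0.30 for Tpsab1 and 2.02 for Il6. A term for the libraries short of long transcripts gave -0.040 for Cnr2 and 0.18 for Il6. The exon-length covariate gave 0.21 for Il6. Leaving out single libraries, the fold changes of genes that changed sign ranged as follows: Col1a1 (-1.64 to 0.49), Tpsg1 (-0.65 to 0.12), Mrgprb2 (-0.50 to 0.0057), Cnr2 (-0.25 to 0.33), Kit (-0.13 to 0.45), Tpsab1 (-0.52 to 0.15), Mcpt8 (-0.33 to 1.02), Mrgprb1 (-0.53 to 0.093), Cd200r3 (-0.70 to 0.25), Mcpt2 (-0.11 to 1.05), Ms4a2 (-0.17 to 0.60), Slc18a2 (-0.026 to 0.31), Fcer1g (-0.73 to 0.066), Il6 (-1.38 to 1.83), Krt14 (-0.19 to 0.44), Tchh (-0.98 to 0.87), Fcer1a (-0.10 to 0.85) and Krt6a (-0.13 to 0.84). Of 779 list medians under the alternatives, 15 moved by at least the SD of the list's mean log2 CPM between replicates, pooled over the 2 groups. A change of sign within that SD was not counted as a move, and the SD was wide in lists with 1 deviating library. No paired analysis was possible because the replicate numbers come from the order of deposition. Depth limits genes under about 0.0852 CPM, the level of 3 counts in the shallowest of the 6 libraries.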
